A study of Mus musculus with 4 samples.

Results

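Trim30a, Xaf1, Gbp3, Bst2, Rsad2, Mx1 and Ifih1 are 7 effector genes of the interferon response, and the data below describe acetylation of histone H3 at lysine 9 (H3K9ac) at these genes in leukaemic mouse bone marrow. H3K9ac marks active promoters and enhancers and was measured by chromatin immunoprecipitation and sequencing (ChIP-seq). The genes were taken by symbol from the deposited table, which holds 9615 rows, 1 per gene, and each of the 7 had exactly 1 row.

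Type I interferons signal through the receptor chains IFNAR1 and IFNAR2 and the kinases JAK1 and TYK2 to transcription factors, which bind interferon-stimulated response elements in promoters and switch on a large set of antiviral genes. Among the genes described here, Ifih1 encodes MDA5, a cytoplasmic sensor of double-stranded RNA. Mx1 and Gbp3 encode large GTPases, Bst2 encodes tetherin, which holds budding virus particles at the cell surface, and Rsad2 encodes viperin, an antiviral radical SAM enzyme. Trim30a encodes a TRIM protein that restrains NF-kB signalling in mouse macrophages, and Xaf1 encodes an antagonist of the apoptosis inhibitor XIAP.

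The comparison was between marrow of Gfi1b fl/fl, MxCre tg, NUP98/HOXD13 tg mice (the tg library) and marrow of Gfi1b fl/fl, MxCre wt, NUP98/HOXD13 mice (the library the submitters call WT). Both genotypes thus carry the floxed alleles of Gfi1b, a transcriptional repressor gene of the erythroid and megakaryocytic lineages, and the leukaemia-inducing NUP98-HOXD13 fusion, so WT means without Cre. Mx-Cre is a Cre recombinase under the interferon-inducible promoter of Mx1, itself 1 of the 7 genes. The labels used here give neither the age of the animals, nor how many were used per library, nor whether or when an inducer of Cre was given. Red cell lysis came before crosslinking (1% formaldehyde) and 20 min of sonication.

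There was 1 H3K9ac library per genotype, so no difference below has a replicate check, and "higher" and "lower" describe these 2 libraries. Neither the scale nor the depth is stated in the sources used here, and both were inferred from the values. The values were scaled to totals of 163712 reads for tg and 309649 for WT, so 1 read corresponds to 6.11 scaled reads (per 1000000) in tg and 3.23 in WT, and where no read was counted the level may still be as high as 18.3 scaled reads in tg and 9.69 in WT (3 reads). The reads at the genes alone already sum to about these totals, so the totals appear to count reads within probes and may not be the number of reads sequenced. All intervals are 95% exact binomial intervals on reads and cover counting error only. Reads of the Y-linked genes differed between the libraries: Uty had 0 reads in tg and 28 in WT, and Ddx3y had 1 in tg and 22 in WT, so sex cannot be told apart from genotype. Gfi1b held 108 reads in tg and 12 in WT over 4 probes, which does not check the deletion, since the table does not place the probes. In chromatin of whole marrow, fewer cells of a type and less acetylation per cell cannot be told apart.

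Promoter windows of the RefSeq table (build GRCm38.p6, 250 bases before to 50 after an annotated start) were found for 6 of the 7 genes. They are shown because the core of the interferon-stimulated response element (ISRE) occurred in 5 of these 6 genes. It was searched on both strands as GAAA, any 2 bases and GAAA again. Only Xaf1 was without a match, so these genes cannot show whether the motif goes with the size of the difference. Capitals mark each match, which reads TTTC, 2 bases and TTTC where it lies on the strand opposite to the gene, and all sequences run 5′ to 3′ on the strand of the gene. The first line shows the upstream window of Trim30a (minus strand, chr7:104465144-104465443), which had the lowest ratio of the 7 genes. The second shows that of Bst2 (minus strand, chr8:71537423-71537722). The third shows that of Ifih1 (minus strand, chr2:62646206-62646505), whose summed and scaled H3K9ac was close to equal. The fourth shows that of Xaf1 (plus strand, chr11:72301379-72301678), where the motif was not found but H3K9ac was far lower.
Trim30a: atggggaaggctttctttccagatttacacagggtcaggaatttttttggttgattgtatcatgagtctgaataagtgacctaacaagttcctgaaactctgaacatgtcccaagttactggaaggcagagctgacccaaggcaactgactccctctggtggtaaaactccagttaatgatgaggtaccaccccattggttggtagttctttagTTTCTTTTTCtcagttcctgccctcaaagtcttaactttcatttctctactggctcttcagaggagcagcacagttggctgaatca
Bst2: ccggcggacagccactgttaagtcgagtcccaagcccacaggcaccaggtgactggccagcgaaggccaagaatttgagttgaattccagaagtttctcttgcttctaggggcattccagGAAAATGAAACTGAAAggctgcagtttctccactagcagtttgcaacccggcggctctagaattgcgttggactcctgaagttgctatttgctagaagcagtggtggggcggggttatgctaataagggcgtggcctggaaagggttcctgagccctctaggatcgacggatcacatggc
Ifih1: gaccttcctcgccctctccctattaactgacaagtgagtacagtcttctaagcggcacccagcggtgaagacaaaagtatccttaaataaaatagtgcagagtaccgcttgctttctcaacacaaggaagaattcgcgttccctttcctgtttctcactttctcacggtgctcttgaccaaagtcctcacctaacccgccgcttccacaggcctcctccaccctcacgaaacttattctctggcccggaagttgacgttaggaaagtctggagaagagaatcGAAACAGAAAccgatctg
Xaf1: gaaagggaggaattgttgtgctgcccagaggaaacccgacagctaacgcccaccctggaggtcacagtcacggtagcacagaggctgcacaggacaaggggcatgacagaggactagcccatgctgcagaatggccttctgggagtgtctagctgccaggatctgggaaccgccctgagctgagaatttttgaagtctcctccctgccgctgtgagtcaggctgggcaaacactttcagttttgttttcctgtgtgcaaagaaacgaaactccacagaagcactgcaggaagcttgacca

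Shorter stretches, the match with 12 bases on either side, show the remaining ones, on chr3:142559987-142560026 (plus strand) for Gbp3 and on chr12:26456551-26456584 (minus strand) for Rsad2.
Gbp3: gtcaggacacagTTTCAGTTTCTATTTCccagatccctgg
Rsad2: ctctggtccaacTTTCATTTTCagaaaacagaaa

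In Trim30a the match began 36 bases before the annotated start, and a second window of this gene, at an alternative start within it (chr7:104446076-104446375), held the same 10 letters beginning 3 bases after that start. Gbp3 and Bst2 each had 2 overlapping matches, which began 45 and 39 bases before the start in Gbp3 and 130 and 124 bases before it in Bst2. The match of Rsad2 began 120 bases before the start, and that of Ifih1 lay 33 bases after it. Of all 32851 RefSeq windows of this length, 1131 (3.44%) held the motif, as did 262 of the 6657 genes of the deposited table that had a window (3.94%). A match is a description of these letters and not a measured binding site, and since the table does not place the probes, the H3K9ac values below cannot be placed on these windows.

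H3K9ac was lower in the tg library at most of the 7 genes. By the deposited log2 values, 5 of the 7 were lower by at least 2-fold, against 15.8% of all genes in the table, and 0 were higher by as much, against 16.5% of all genes. At 3-fold these counts were 4 (7.99% of all genes) and 0 (8.49%), and at 1.5-fold 5 (25.4%) and 0 (28.7%). The 4 genes past 3-fold included Gbp3, whose 0 reads in tg were entered as 0.9 and which at the floor of 3 reads is 2.82-fold lower and not past 3-fold, and Rsad2, whose counting interval includes 1. The median log2 ratio (tg minus WT) was -2.08 over the 7 genes and 0.045 over all genes. The former is the value of Rsad2, which rests on 1 read in tg and 8 in WT. No 1-probe gene had fewer than 9 reads over both libraries. Rsad2, Gbp3 and Xaf1, all counted among the 5, had 1, 0 and 3 reads in tg. They reached this minimum only with their WT reads. From the reads behind the values, which could be recovered for all 7, the interval of the ratio lay below 1 for 4 genes (12.7% of all genes with recovered reads) and above 1 for 0 (12.8%). Past 2-fold by the summed reads were 5 lower genes (15.4%) and 0 higher ones (14.8%). Summed over the 7 genes there were 74 reads in tg and 384 in WT, a scaled level 2.74-fold lower in tg (2.13 to 3.57). This interval treats the reads as 1 pool and does not cover the spread between genes, whose ratios differed. Trim30a alone held 119 of the WT reads. By the ratio alone, 5 genes were lower (Trim30a, Gbp3, Xaf1, Bst2 and, with an interval that includes 1, Rsad2). The sums of Mx1 and Ifih1 were near equality. Depth differed within the lower genes. Of the 5 members with at least 20 reads, 3 were 2-fold lower and 0 higher, against 14.7% and 12.5% of all genes at that depth.

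**Figure D1:**
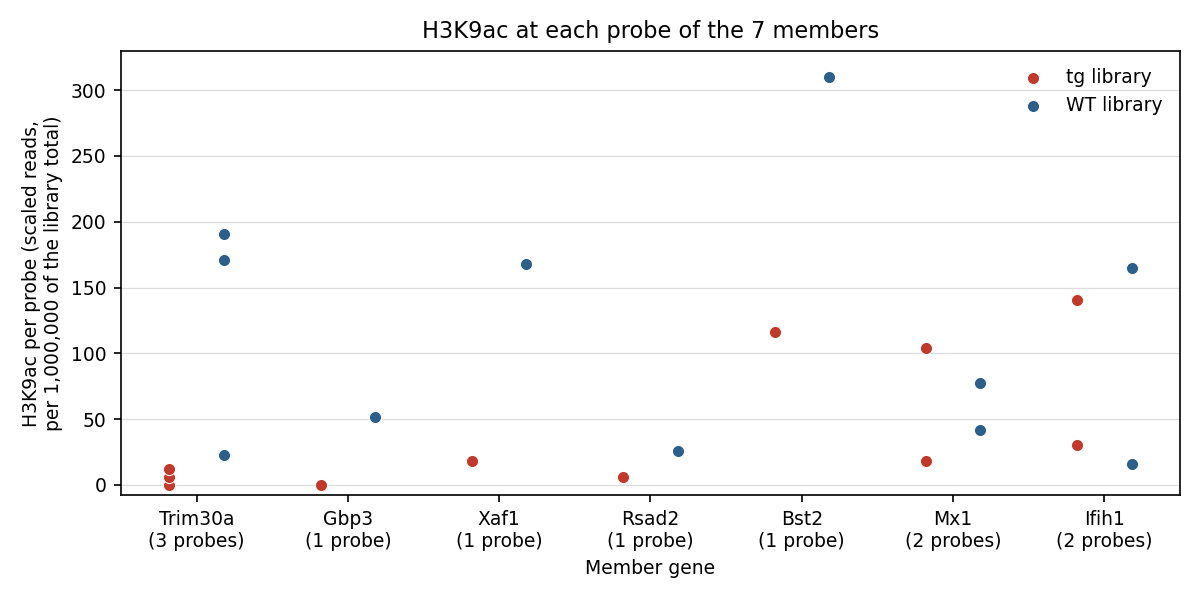
Scaled H3K9ac reads (per 1000000 of the library total, vertical axis) at each probe of the 7 genes (horizontal axis), with the tg library left of the WT library. Each point is 1 probe in 1 library, and there are no replicates. Bst2 stood at 116 in tg and 310.0 in WT, whereas the probes of Mx1 and Ifih1 overlap between the libraries.

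Ifih1, the gene of the RNA sensor MDA5 (ENSMUSG00000026896, chromosome 2, 62595798 to 62646255), had 2 probes with 5 and 23 reads in tg, and 5 and 51 reads in WT. The libraries overlapped in their probe values, and in both most reads were at a single probe (82.1% in tg and 91.1% in WT). Summed, 28 reads in tg stood against 56 in WT, where an equal level would have given 29.6 in tg. The ratio of the sums was 0.946, with an interval of 0.578 to 1.51 that includes 1 and leaves out a 2-fold difference in either direction. This holds for the sums only, since the values do not tell which tg probe matches which WT probe. If the 5 tg reads belong with the 51 WT reads, that probe was 5.39-fold lower in tg (2.17 to 17.3). The other probe, with 23 reads in tg and 5 in WT, was then higher. The deposited log2 ratio of 0.35, which weighs both probes alike, had the opposite sign to the log2 ratio of the sums (-0.08). Without the probe that held most reads in each library, 5 reads remained in each, a ratio of 1.89. Dhx58, which encodes the related receptor LGP2, had 1 read in tg and 13 in WT (ratio 0.145, 0.00342 to 0.969).

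Mx1 (ENSMUSG00000000386, chromosome 16, 97447035 to 97462907) encodes a dynamin-like GTPase that blocks influenza virus, and RefSeq lists it as a transcribed pseudogene in the reference mouse genome. Its 2 probes held 3 and 17 reads in tg, and 13 and 24 in WT. Scaled, the stronger tg probe lay above both WT probes and the weaker below both, so the libraries overlap. The sums were 20 reads in tg and 37 in WT, where an equal level would have given 19.6 in tg (ratio 1.02, 0.562 to 1.81). Here too the match of probes between the libraries is not known. If the 3 tg reads belong with the 24 WT reads, that probe was 4.23-fold lower in tg (1.28 to 21.9). The other probe, with 17 reads in tg and 13 in WT, was then higher. As at Ifih1, the sign depended on the summary: the deposited log2 ratio was -0.39 and that of the sums 0.03. Without the strongest probe of each library the ratio was 0.436, from 3 reads in tg and 13 in WT. The Cre transgene of the tg animals brings its own copy of Mx1 promoter sequence, and reads from such a copy cannot be told apart from those of the endogenous gene.

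Gbp3 (ENSMUSG00000028268, chromosome 3, 142560052 to 142573209) encodes a guanylate-binding protein, a GTPase family that acts against intracellular pathogens and their vacuoles. Its probe held 0 reads in tg and 16 in WT, where an equal level would have given 8.46 in tg. Set at the floor of 3 reads in tg, H3K9ac was at least 2.82-fold lower, and the 95% interval of the counts began at 2.04-fold lower. Gbp5, the guanylate-binding gene that lies 37708 bp away in the same cluster, was the other member of the family with a row, and it differed in the opposite direction. Its 2 probes held 9 and 9 reads in tg, and 0 and 10 in WT, a summed ratio of 3.40 (1.49 to 8.26), so that the intervals of these neighbours do not overlap. The genes of this cluster are close copies of each other, and the sources used here do not say how reads matching several copies were assigned.

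Bst2, the tetherin gene (ENSMUSG00000046718, chromosome 8, 71534264 to 71537437), had the most WT reads at a single probe among the 7 genes, with 19 reads in tg and 96 in WT. An equal level would have given 50.8 reads in tg. H3K9ac was 2.67-fold lower in tg (1.62 to 4.63). The ratios of the genes with a row directly next to Bst2 were nearer to 1. Fam125a, 5493 bp away, had 6 reads in tg and 20 in WT (ratio 0.567, 0.186 to 1.46). Its interval includes the Bst2 ratio of 0.374. Gtpbp3 had 18 in tg and 25 in WT (1.36, 0.700 to 2.60). Within 150 kb the ratios ran from 0.0860 at Jak3 (1 read in tg and 22 in WT) to 1.89 at Abhd8 (8 in tg and 8 in WT). Bst2 is also a surface marker of mouse plasmacytoid dendritic cells. On a list of 14 genes of that cell type, Bst2 included, 8 had a row. Of these, 5 were 2-fold lower and 1 was higher in tg, against 15.8% and 16.5% of all genes. The part of this list in the value of Bst2 was not tested.

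Rsad2 (ENSMUSG00000020641, chromosome 12, 26442753 to 26456452), the viperin gene, was the most thinly covered member, with 1 read in tg and 8 in WT. These 9 reads are the fewest that any 1-probe gene of the table has over both libraries, a level shared by 312 genes. H3K9ac was 4.23-fold lower in tg, with an interval from 0.567 to 188 that includes 1, so a difference was not detectable at this depth. Cmpk2, an interferon-induced kinase gene 12752 bp from Rsad2, was better covered, with 3 and 16 reads in tg at its 2 probes and 8 and 28 in WT. Its summed ratio was 0.998 (0.541 to 1.79). Rnf144a, 27497 bp from Rsad2, differed, with 1 read in tg and 26 in WT (ratio 0.0727, 0.00177 to 0.443).

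Trim30a (ENSMUSG00000030921, chromosome 7, 104409025 to 104465193) had the lowest ratio. Its 3 probes held 0, 1 and 2 reads in tg, and 7, 53 and 59 in WT. Every tg probe was thus below every WT probe, and the tg sum of 3 reads stood against 62.9 at an equal level. By the sums, 3 reads in tg and 119 in WT, H3K9ac was 21.0-fold lower (7.00 to 103), and the deposited log2 ratio was -3.60, the 50th lowest of the 9615 genes. The mean and standard deviation of a gene carry no order of probes, but all 2067 genes with 2 to 4 probes and recovered reads allow a pairing in which each probe has at least 9 reads over both libraries, the minimum seen in 1-probe genes. Under that minimum the weakest WT probe of Trim30a, with 7 reads, can be paired only with the tg probe of 2 reads (1.85-fold lower, 0.352 to 18.3). The remaining probes, with 53 and 59 reads in WT, then held 0 and 1 in tg.

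The Trim genes beside Trim30a were lower as well, and all 5 with a row passed 2-fold, against 15.8% of all genes. Trim30d, 4821 bp away, had 2 reads in tg and 27 in WT (ratio 0.140, 0.0161 to 0.558), and Trim12c had 6 in tg and 42 in WT (0.270, 0.0939 to 0.639). Trim12a and Trim34b have identical values, 7 reads in tg and 32 in WT (0.414, 0.154 to 0.954). Trim34a had 18 reads in tg and 75 in WT over 2 probes (0.454, 0.255 to 0.767), and since 1 of its probes has the read counts of Trim12a, these genes are not separate measurements. The genes of this cluster resemble each other in sequence, so reads may be uncertain between them.

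**Figure D2:**
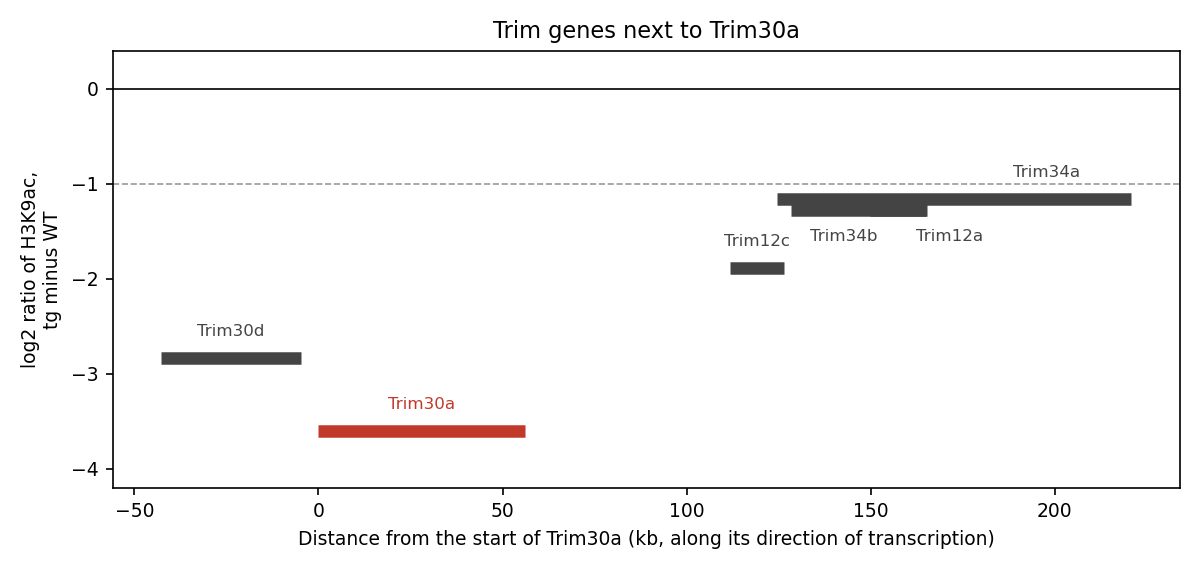
Deposited log2 ratio of H3K9ac (tg minus WT, vertical axis) for Trim30a, in red, and the 5 Trim genes beside it, plotted by distance from the start of Trim30a in kb (horizontal axis). Each bar spans 1 gene, the dashed line marks 2-fold lower, and all 6 bars lie below it, Trim30a at -3.60 and Trim34a at -1.16.

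Xaf1 (ENSMUSG00000040483, chromosome 11, 72301629 to 72313733), the XIAP antagonist gene, had 3 reads in tg and 52 in WT at its probe, where an equal level would have given 27.5 in tg. H3K9ac was 9.16-fold lower in tg (2.97 to 45.9). Among the 3034 genes with at least as many reads over both libraries, 0.791% had a ratio this low. The nearest genes with a row were 83179 bp or more away. The nearest of them, 4930563E22Rik, had 5 reads in tg and 22 in WT (ratio 0.430, 0.127 to 1.16). Med31 had 9 reads in tg and 32 in WT (0.532, 0.223 to 1.14). Txndc17 and 4933427D14Rik have identical values, 6 reads in tg and 23 in WT (0.493, 0.164 to 1.25). All these ratios were below 1, with intervals that include 1.

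**Figure D3:**
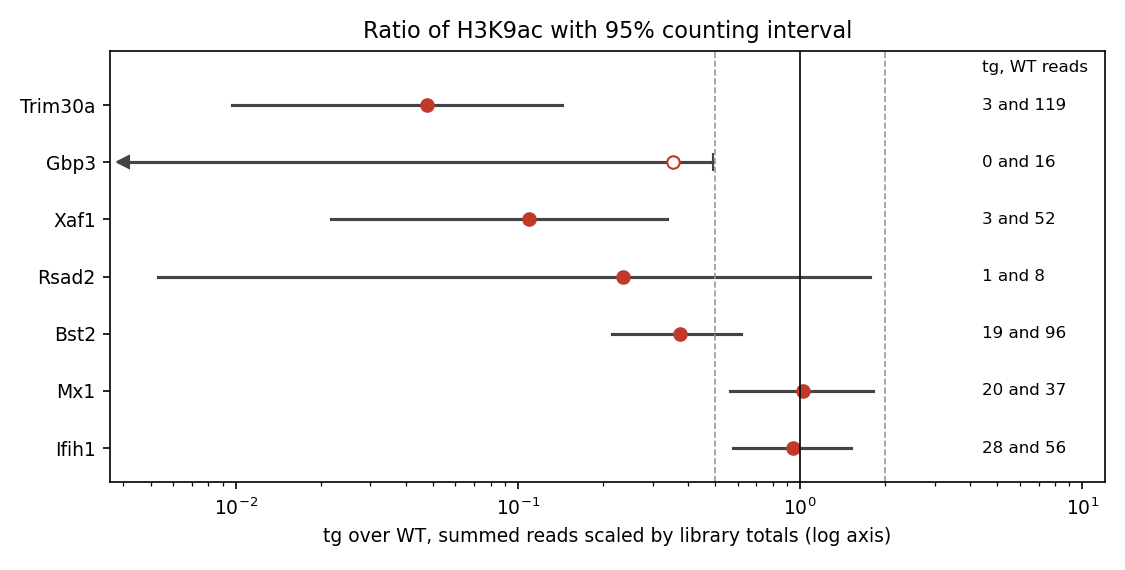
Ratio of summed, scaled H3K9ac reads (tg over WT, horizontal log axis) for the 7 genes, with bars for the 95% counting interval and the read numbers at the right. The open point of Gbp3 is set at the floor of 3 reads because tg had 0, and its bar has no lower end. Dashed lines mark 2-fold, and the bars of Rsad2, Mx1 and Ifih1 cross 1.

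Genes with the same number of probes whose 2 deposited values lay closest to those of a member were looked up. With only 2 libraries this likeness means no more than similar levels. The nearest to Trim30a were Rin3 and Gpr97, at distances of 0.60 and 0.66 in log2 units, with log2 ratios of -2.76 and -2.67. Next to Xaf1 came Slfn8, also an interferon-stimulated gene (3 reads in tg and 49 in WT, distance 0.09), and Csnk1e (3 in tg and 48 in WT). Bst2 was closest to Ube2b (21 in tg and 96 in WT) and Rnf130 (20 in tg and 86 in WT). Mx1 was closest to Rpl7 and Batf, and Ifih1 to Tmem156 and Zfp58. Low counts make exact matches common: Gimap4 had the values of Gbp3, and Adrbk2 and Atp6v0d2 those of Rsad2.

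A wider list of 117 interferon-stimulated genes, without the 7 members, also had more genes lower than higher in tg. Of its 81 genes with a row, 34 (42.0%) were lower by at least 2-fold and 8 (9.88%) higher, against 15.8% and 16.5% of all genes, and the median log2 ratio was -0.83. The Schlafen gene Slfn2 had 5 reads in tg and 92 in WT (ratio 0.103, 0.0326 to 0.249), and Slfn8 a ratio of 0.116 (0.0231 to 0.359). In the other direction the nucleotidase gene Nt5c3 had 35 reads in tg and 19 in WT (3.48, 1.94 to 6.45). Nearest to 0 were the immunity-related GTPase genes Igtp (11 in tg and 21 in WT, log2 ratio -0.01) and Irgm2 (log2 ratio -0.01 over 5 probes).

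The wider list was then divided by whether a promoter window held the ISRE core motif. Only 68 of its 81 genes with a row had a window, and the others are left out. Of 26 genes with the motif, 17 (65.4%) were lower by at least 2-fold and 1 was higher, with a median log2 ratio of -1.31. These 17 are not all separate measurements. They include Trim30d, Trim12c, Trim12a and Trim34a of the Trim30a cluster, and Mndal and Ifi203, whose annotated spans overlap. Of 42 genes with a window but without the motif, 9 (21.4%) were lower and 7 higher, with a median of -0.49. The gene that was higher with the motif was Gbp5. The signalling and sensing lists described next had only 3 and 1 genes with the motif, too few for this comparison. On the signalling list 0 of 3 genes with the motif were lower and 0 higher, against 8 of 17 (47.1%) lower and 1 higher without it, and on the sensing list the 1 gene with the motif was higher, while 4 of 23 without it were lower and 3 higher. Outside the interferon-related lists, 19.4% of 227 genes with the motif and 15.4% of 6314 without it passed 2-fold downwards, and 11.9% with it and 16.1% without it passed 2-fold upwards. These shares are descriptions, with no test.

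Genes of interferon receptors and signalling were more often lower than higher in tg. Of 25 listed genes 24 had a row, 9 (37.5%) were lower by at least 2-fold and 1 (4.17%) was higher, against 15.8% and 16.5% of all genes. The median log2 ratio was -0.44, and 19 of the 24 lay below 0. The receptor chain genes of type I interferon were near equality, with 12 reads in tg and 23 in WT for Ifnar1 (ratio 0.987, 0.447 to 2.07). The interferon regulatory factor genes Irf5 (4 in tg and 55 in WT, ratio 0.138, 0.0362 to 0.373), Irf1 (4 in tg and 51 in WT, 0.148, 0.0389 to 0.404) and Irf8 (29 in tg and 407 in WT, 0.135, 0.0891 to 0.197) had the largest differences among genes with at least 20 reads. Irf2, by contrast, had 57 in tg and 119 in WT (0.906, 0.649 to 1.25). The gene that was higher was the kinase gene Tyk2, on 8 reads in tg and 1 in WT, named after its value was seen.

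Among nucleic acid sensing genes, the pathway of Ifih1, 2-fold differences were also more often downwards. Of 41 listed genes 31 had a row, 9 (29.0%) were 2-fold lower and 4 (12.9%) higher, against 15.8% and 16.5% of all genes. With so few genes, the share of higher genes was close to that of the whole table. The median log2 ratio was -0.18, and 17 of the 31 lay below 0. The adaptor gene Myd88 of the toll-like receptors was 3.58-fold higher in tg (36 reads in tg and 19 in WT, 2.0 to 6.61), and the kinase gene Chuk 3.78-fold higher (36 in tg and 18 in WT, 2.09 to 7.08). Azi2, which encodes an adaptor of the kinase TBK1, was lower (7 in tg and 45 in WT, ratio 0.294, 0.112 to 0.657). The NF-kB subunit genes Nfkb1 and Rela had deposited log2 ratios of 0.08 and 0.05, whereas by summed reads Rela had a ratio of 0.530 (0.335 to 0.812). The remaining higher genes, Ppp1cc and Zc3hav1, were named after their values were seen, and by summed reads 3 genes were higher. Usp18 is on both the wider and the signalling list, and Trim25 and Zc3hav1 are on both the wider and the sensing list.

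**Figure D4:**
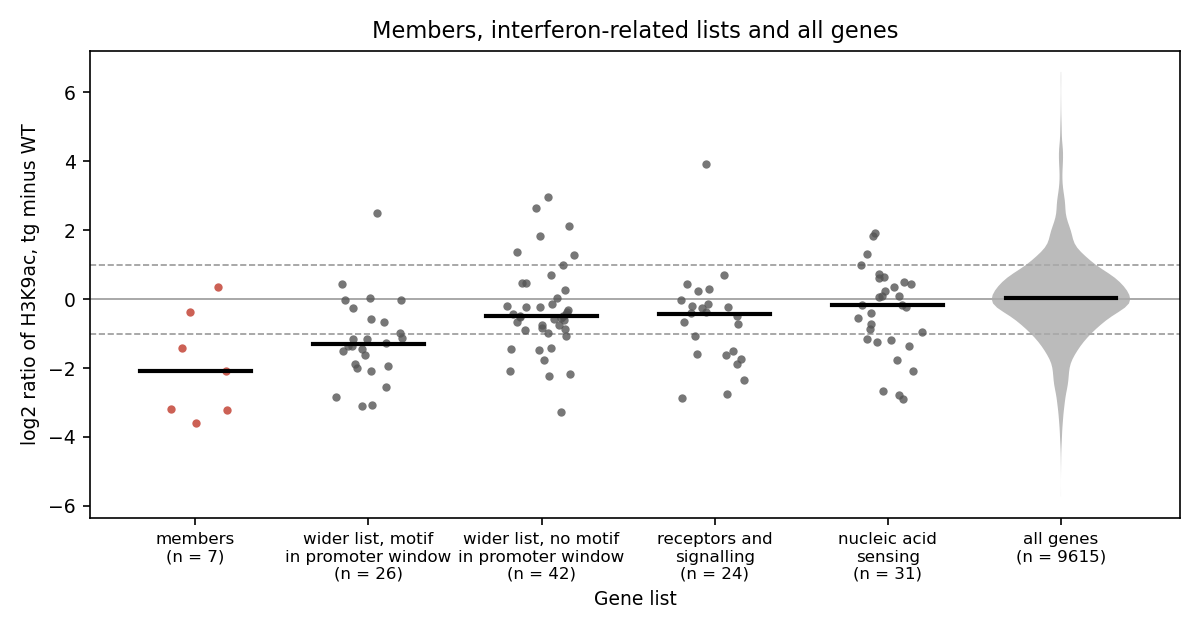
Deposited log2 ratios of H3K9ac (tg minus WT, vertical axis) for the 7 genes, the wider interferon-stimulated list with and without the motif, the signalling list, the sensing list and all genes (horizontal axis). Points are genes, the grey shape is the distribution over 9615 genes, black bars are medians and dashed lines mark 2-fold. The medians run from -2.08 for the 7 genes and -1.31 for the wider list with the motif to 0.045 for all genes.

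Markers of cell types also differed between the libraries, and their part in the values above was not tested. Over all genes, 15.8% were 2-fold lower and 16.5% higher in tg. Of 13 erythroid markers with a row, 12 were 2-fold higher and 0 were lower in tg, with 2914 scaled reads in all in tg and 529.6 in WT, and Epor, Rhag and Alas2 had 0 reads in WT. All 5 neutrophil markers with a row, of 20 listed, were lower (55.0 in tg and 313 in WT). Mpo had 1 read in tg and 31 in WT. Of 8 monocyte and macrophage markers 4 were lower and 1 was higher (434 in tg and 1922 in WT), with Ly86 at 2 reads in tg and 83 in WT. The higher marker was Csf1r (log2 ratio 2.09), and Cx3cr1, Ctss and Klf4 lay at 0.63, 0.60 and -0.08, all named after their values were seen. The 8 plasmacytoid dendritic cell markers summed to 1026 in tg and 2813 in WT over the 7 genes with recovered reads. Irf8 is on both of these lists and on the signalling list, and it alone held 177 in tg and 1314 in WT. Without it the monocyte and macrophage markers summed to 257 in tg and 607 in WT, and the plasmacytoid dendritic cell markers to 849 in tg and 1498 in WT. Further genes of the plasmacytoid dendritic cell list are shared, Bst2 with the 7 genes, Irf7 with the signalling, Tlr9 with the sensing and Flt3 with the stem and progenitor list. Of 12 stem and progenitor markers 7 were lower and 3 higher, and Cd34 had 0 reads in tg. The largest differences on this list were upwards, at Tal1 and Lmo2 (log2 ratios of 3.59 and 3.08 over 6 probes each), transcriptional regulators that erythroid cells also use. Their reads could not be recovered, so the sum over the other 10 genes, 2871 in tg and 5474 in WT, leaves them out. B cell, T and NK cell, and megakaryocyte lists had 3, 3 and 5 genes with a row, with 257 in tg and 158 in WT, 109.9 in tg and 61.4 in WT, and 329.8 in tg and 394 in WT.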

How the data were processed

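H3K9ac and rabbit IgG ChIP-seq were done on marrow of both genotypes, 4 libraries in 4 groups of 1. Per the file headers, the deposited table gives each gene's probe mean and probe standard deviation in the 2 H3K9ac libraries, which its columns name by library code. No column matched an IgG library, so that background was not analysed here. The submitters' processing notes name the tools CASAVA 1.8.2, FastQC, BWA and SAMtools and the builds GRCm38 and mm10. Not given in the sources used here: probe placement and duplicate handling.

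The authors' deposited values are log2 values. In the 7423 genes with 1 probe, all (100%) corresponded to whole reads, to within 0.01 of a read, with 0 reads entered as 0.9. Reads per probe were recovered where exactly 1 set of whole numbers gave both mean and standard deviation (9490 genes, up to 4 probes), and this was tested on simulated data. Ratios of reads have exact conditional (Clopper-Pearson) intervals from scipy 1.17.1. Without molecular identifiers, reads need not be independent molecules. With 1 library per group no p-value is given, and 2-fold is a rule of size. The levels of different genes were not compared, because probe lengths are not given.

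The members and lists were chosen with earlier results of these data known. The rule for names took the members, their families, neighbours with the same values (0 were found), the 3 largest and 2 smallest log2 ratios per list among genes with at least 20 reads (or with unrecovered reads), the 2 nearest genes by level, and up to 2 markers per cell type list. Neighbours with other values, within 150 kb, were named after their values were seen. Alternatives were scaling, summed reads, treatment of 0 reads, other fold sizes, a read filter, and shared or single probes.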

Additional observations from a re-analysis of the deposited data

How the results depend on the processing

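No paired analysis was possible because each group has 1 library, and for the same reason no library could be left out. The 5 members at least 2-fold lower in tg were also 5 when ratios were centred on the median of all genes, when reads were summed, when 1 read was added at every probe, when 0 reads were set to 3, and at 1.5-fold. At 3-fold there were 4, and among the 5 members with at least 20 reads 3. The count of members 2-fold higher was 0 under each alternative run. Their median log2 ratio of -2.08 was -1.50 with 0 reads set to 3 and -1.36 with 1 read added. On the wider list the 34 genes 2-fold lower became 19 at 3-fold, and lay between 27 and 47 under the other alternatives. Over all genes, 1522 became 2445 (25.4%) at 1.5-fold and 768 (7.99%) at 3-fold by construction of the rule. Among single members, the log2 ratio of Gbp3 (-3.23) was -1.50 with 0 reads set to 3, that of Rsad2 (-2.08) was -1.25 with 1 read added, and that of Trim30a (-3.60) lay between -4.39 (summed reads) and -3.02 (0 reads set to 3). Summing reads changed the sign at Mx1 (-0.39 to 0.03) and Ifih1 (0.35 to -0.08). Without the strongest probe the ratio of summed reads was 0.0315 in place of 0.0477 at Trim30a. At Mx1 (0.436) and Ifih1 (1.89) it left the counting interval of all probes. The Mx1 ratio then rests on 3 reads in tg and 13 in WT, and that of Ifih1 on 5 in each. The intervals of these smaller counts include 1. The probe left out need not be the same in both libraries. The cause of the shifts was not tested. The tg total of 163712 reads sets the precision: the median 1-probe gene had 11 reads in tg and 22 in WT, and at Rsad2 no difference could be detected.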

Other observations

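Families within the wider interferon-stimulated list were grouped after their values were seen, so the following are values only. Over all genes, 15.8% were lower by at least 2-fold and 16.5% higher. Of the 5 Schlafen genes with a row, regulators of leukocyte growth and virus restriction, 3 were lower by at least 2-fold and 0 higher, with 30 reads in tg and 234 in WT. The 4 oligoadenylate synthetase genes, whose products activate RNase L or resemble those that do, had 3 lower and 0 higher, with 30 reads in tg and 120 in WT. Of the 4 genes of the p200 family of DNA-binding proteins, 3 were lower and 0 higher, with a median log2 ratio of -1.64. The annotated span of Mndal covers that of Mnda and nearly all of that of Ifi203, so these 3 genes are not known to be separate measurements.

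Other families stood nearer to equality or were mixed. The 4 immunity-related GTPase genes had a median log2 ratio of -0.01, with 0 lower and 1 higher. Over those with recovered reads there were 129 reads in tg against 258 in WT. The higher gene was Ifi47, whose summed ratio of 1.18 has an interval that includes 1 (0.796 to 1.72). The annotated span of Irgm2 covers nearly all of that of Igtp, so these genes are not known to be separate measurements. The 4 ADP-ribosyltransferase genes Parp9, Parp10, Parp12 and Parp14 lay between -0.89 and -0.58, and 0 of them passed 2-fold. Of 6 immunoproteasome and peptide loading genes 2 were lower and 1 was higher, against 15.8% and 16.5% of all genes. Within this group Psmb8 had 5 reads in tg and 45 in WT. Tapbp, the higher gene, had 33 in tg and 46 in WT over 2 probes, 1 of which held 0 reads in WT. Its summed ratio of 1.36 has an interval that includes 1 (0.841 to 2.17). The probe reads of Tap1 include those of Psmb9, 24 in tg and 122 in WT, so these genes are not known to be separate measurements.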
